A study of Mus musculus with 8 samples.

Results

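The subunits of respiratory complexes II to V were followed in mouse hearts 4 days after doxorubicin (DOX), an anthracycline used against cancer that can damage heart muscle, in animals with and without working metallothionein genes. The set held every probe set whose single platform gene symbol was Sdha, Sdhb, Sdhc, Sdhd, Cyc1 or Cycs, or began with Uqcr, with Cox and a digit from 4 to 8, or with Atp5 and a letter. It came to 48 genes, of 18193 with a single symbol on the array, and to 96 probe sets, of 45037 that were not array controls. The rule used gene symbols and no measured value, but the members were chosen with earlier results of these data known. Of the 96, 83 passed the filter on dim probe sets and were tested, and they covered 46 genes. Cox7b2, a testis form of a complex IV subunit, and Cox7c, a small complex IV subunit, had no tested probe set.

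The study used male mice aged 6 to 8 weeks, and no source used here names the strain. There were 4 groups of 2 arrays, each array labelled as a biological replicate. They were MT-/- hearts (null for metallothioneins I and II) after a single intraperitoneal DOX dose of 15 mg/kg, MT-/- hearts after saline, MT+/+ (wild type) hearts after the same DOX dose, and MT+/+ hearts after saline. Hearts were taken on day 4. No source used here says whether an array held RNA from 1 heart or a pool. Whole-heart RNA was measured, so fewer cells of a type and less RNA per cell cannot be told apart.

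The respiratory chain sits in the inner mitochondrial membrane. Complex II (succinate dehydrogenase) passes electrons from succinate to ubiquinone, complex III passes them on to cytochrome c, complex IV passes them to oxygen, and complex V uses the proton gradient built on the way to make ATP. Heart muscle depends on this supply and is packed with mitochondria, and all of the subunits described here are encoded in the nucleus, while a few core subunits of complexes III, IV and V are encoded in mitochondrial DNA and were not analysed here.

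Each value is a quantile-normalized fluorescence intensity in linear units. Tests were made on log2(intensity + 16) with limma across all 24751 tested probe sets, with Benjamini-Hochberg adjusted p and a threshold of 0.05. A change is DOX minus saline or MT-/- minus MT+/+ on that log2 scale, with the standard error (SE) of the fit over 8 arrays. A gene is described by its brightest tested probe set unless stated. With 2 arrays per group, the number of arrays limits the precision.

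Members were among the brightest probe sets of the heart arrays: their median intensity was 8571, and 38 of the 46 genes lay above the 99th percentile. All 10 cardiomyocyte markers passed the filter, which asked for the array median or more on at least 2 of 8 arrays. Correlations between arrays were 0.984 to 0.988 within groups and 0.958 to 0.99 between them. The deposited signal of Mt1, a targeted gene, was not low on the arrays labelled MT-/-: it was 12549 and 12850 with DOX and 4667 and 5322 with saline there, against 6735 and 9285 with DOX and 3722 and 4034 with saline on MT+/+ arrays. No source used here describes the allele, so this signal does not check the labels, and the groups are called by them. The actin 3′ to 5′ signal ratio, a measure of RNA and labelling quality, was 0.913 and 1.18 on MT-/- DOX arrays and 1.14 and 1.23 on MT-/- saline arrays. It was 0.948 and 1.05 on MT+/+ DOX arrays and 1.15 and 1.24 on MT+/+ saline arrays. The same ratio of Gapdh was 0.984 to 1.05 over the 8 arrays, and the part of RNA quality in the results was not tested.

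Promoter windows of 4 genes that fell after DOX are shown because these genes bear the results below and belong to different complexes. They are RefSeq windows from 250 bases before to 50 bases after the start of the gene (GRCm38.p6), written 5′ to 3′ on the strand of the gene. Capitals mark matches on either strand to the NRF1 core GCATGCGC (NRF1 is a regulator of respiratory genes), the GABP (ETS family) core CCGGAAG, or the CCAAT box. Atp5g1 lies at chr11:96075582-96075881, minus strand, Cox7a1 at chr7:30183921-30184220, plus strand, Uqcr11 at chr10:80406772-80407071, minus strand, and Cycs at chr6:50566520-50566819, minus strand.
Atp5g1: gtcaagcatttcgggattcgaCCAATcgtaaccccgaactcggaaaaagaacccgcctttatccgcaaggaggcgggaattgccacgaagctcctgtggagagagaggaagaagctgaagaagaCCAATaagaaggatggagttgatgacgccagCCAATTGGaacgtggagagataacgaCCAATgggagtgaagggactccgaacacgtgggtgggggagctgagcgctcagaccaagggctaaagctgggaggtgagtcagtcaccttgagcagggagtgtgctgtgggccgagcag
Cox7a1: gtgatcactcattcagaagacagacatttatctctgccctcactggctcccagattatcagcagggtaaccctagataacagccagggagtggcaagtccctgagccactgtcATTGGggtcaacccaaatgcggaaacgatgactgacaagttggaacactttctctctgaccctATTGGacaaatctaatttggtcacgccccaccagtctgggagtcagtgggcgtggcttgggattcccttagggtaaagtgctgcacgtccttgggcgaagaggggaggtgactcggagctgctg
Uqcr11: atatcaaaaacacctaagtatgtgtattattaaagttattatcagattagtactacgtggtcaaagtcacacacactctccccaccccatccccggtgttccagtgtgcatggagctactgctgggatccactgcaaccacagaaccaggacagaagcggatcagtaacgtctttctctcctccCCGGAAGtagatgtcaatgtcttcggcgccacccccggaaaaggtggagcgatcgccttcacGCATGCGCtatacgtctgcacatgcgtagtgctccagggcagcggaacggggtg
Cycs: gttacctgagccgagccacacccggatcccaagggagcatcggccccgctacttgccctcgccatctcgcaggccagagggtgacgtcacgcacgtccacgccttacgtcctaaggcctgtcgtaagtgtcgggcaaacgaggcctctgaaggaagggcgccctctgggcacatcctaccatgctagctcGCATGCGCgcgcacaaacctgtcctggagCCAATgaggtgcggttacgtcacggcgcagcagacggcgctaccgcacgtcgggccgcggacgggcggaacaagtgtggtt
The Atp5g1 window held 5 CCAAT matches, of which a plus-strand and a minus-strand match overlapped. Cox7a1 held 2 CCAAT matches, both on the minus strand. Uqcr11 held the NRF1 core and the GABP core, and Cycs held the NRF1 core and a CCAAT box. These 4 windows do not stand for all genes that fell. Cyc1 and Uqcrfs1 of complex III had a smaller p than Uqcr11 and were not among the genes with a match. No window of complex II is shown.

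Of the 48 member genes 36 had such a window, 39 windows in all. The NRF1 core stood in 20.5% of member windows and in 2.71% of all 32851 windows. The GABP core stood in 33.3% of member windows against 8.86% of all, and CCAAT in 53.8% against 37.4%. TCAAGGTCA, a core bound by estrogen-related receptors, stood in 5.13% of member windows against 0.423% of all, and AAGATGGCG, a YY1 core, in 5.13% against 1.4%. Among genes with a window, the NRF1 core was in 5 of the 12 that fell after DOX and in 3 of the 22 tested genes that did not pass. The GABP core was in 5 of the 12 and in 8 of the 22, and CCAAT in 6 of the 12 and in 13 of the 22. The estrogen-related receptor core and the YY1 core were each in 0 of the 12 and in 2 of the 22. A match describes letters only, and binding was not measured.

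After DOX, averaged over genotypes, every member gene past the threshold was lower. Of 46 genes, 14 fell (30.4%) and 0 rose, beside 7.81% of all 13008 tested genes that fell and 6.98% that rose. They were Sdhb of complex II, Cyc1, Uqcrfs1, Uqcr11, Uqcrq and Uqcrc1 of complex III, Cycs, Cox7a1 and Cox5a of complex IV, and Atp5g1, Atp5md, Atp5e, Atp5k and Atp5d of complex V. Falls were between 11.5% (Atp5k) and 30.4% (Cox7a1). The median log2 change over the 46 genes was -0.15, against -0.01 over all genes, and 40 of 46 lay below 0, against 52.1% of all genes. With the deposited scaling 38 of 46 lay below 0 (median -0.12), against 53% of all genes. With median centring 35 of 46 did (median -0.1), against 47.8% of all genes, whose median was then 0.01.

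Counted by probe sets, 24 of 83 fell (28.9%) and 0 rose, beside 6.84% of all probe sets that fell and 7.03% that rose. A further 4 genes (Uqcr10, Uqcrb, Atp5j2 and Atp5pb) passed only with a dimmer probe set, so 18 genes had at least 1 probe set that fell. The DOX arrays lay wholly below the saline arrays for 17 of 46 genes, beside 10.1% of all genes, and wholly above for 0, beside 9.92%. The 17 were the 14 that fell plus Cox6a1, Atp5mpl and Atp5j. Replicate numbers marked a shared deviation of the arrays across groups, and with the number as a block 41 probe sets and 22 genes fell, beside 27.1% of all probe sets called in either direction (13.9% without the block). Without the mean-variance trend in the fit 9 of 83 probe sets and 6 genes fell. All probe sets called in either direction then numbered 3394 of 24751, beside 3433 with the trend. In that run the share of member probe sets called was below that of all probe sets called in either direction. Falls over all probe sets were not counted separately there. With 1 array left out, calls over all probe sets were not counted. A loss of member calls there cannot be told from a loss of all calls. Leaving out 1 array gave 10 probe sets and 7 genes without MT-/- saline array 1, 13 and 9 without MT+/+ DOX array 2, and 15 and 9 without MT+/+ saline array 1. It gave 15 and 10 without MT-/- saline array 2.

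**Figure D1:**
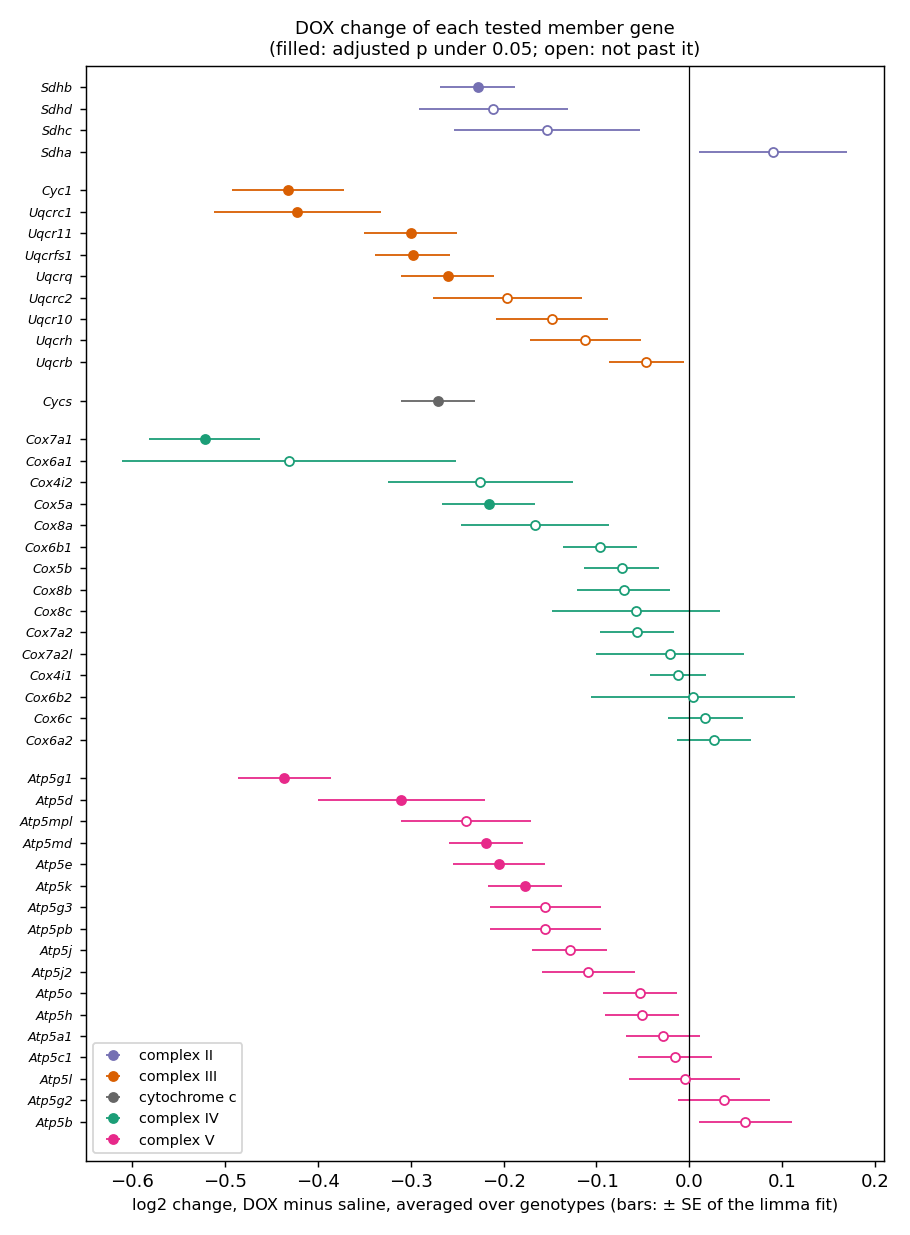
Log2 change of each of the 46 tested member genes after DOX, averaged over genotypes (x axis, DOX minus saline; bars are ± SE of the limma fit; filled points passed adjusted p 0.05), grouped by complex (y axis). Complex III has a median of -0.26 and complex IV of -0.07, with Cox7a1 (-0.52) and Cox6a1 (-0.43, not past the threshold) furthest left in complex IV.

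By complex, 1 of 4 genes of complex II fell (median log2 change -0.18), 5 of 9 of complex III (-0.26), the single cytochrome c gene (-0.27), 2 of 15 of complex IV (-0.07) and 5 of 17 of complex V (-0.13). Of all 13008 tested genes 7.81% fell and 6.98% rose. The counts of 1 of 4 and 2 of 15 rest on few genes, and no count by complex was tested against that share. No test of the difference between complexes was made. Complex I, the entry point for electrons from NADH, is the nearest like group. Of its 32 tested subunits 14 fell and 1 rose (Ndufv1, a NADH-binding subunit, by 0.32 ± 0.06, adjusted p 0.0076), with a median of -0.19.

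In complex II the fall was in the iron-sulfur subunit and not detected in the others. Sdhb read 8654 and 9084 on MT-/- DOX arrays against 11374 and 10877 on MT-/- saline arrays, and 10175 and 10463 on MT+/+ DOX arrays against 11709 and 10877 on MT+/+ saline arrays. All 4 DOX arrays lay below all 4 saline arrays. Sdhb, which carries the iron-sulfur clusters that pass electrons on, fell by 0.23 ± 0.04 (14.6%, adjusted p 0.0114), a call lost without MT-/- saline array 1 (0.0584) and without the trend in the fit. Sdha, the flavoprotein that oxidizes succinate, read 5489 and 6563 on MT-/- DOX arrays against 5044 and 5968 on MT-/- saline arrays, and 5839 and 6144 on MT+/+ DOX arrays against 5735 and 5827 on MT+/+ saline arrays. Its groups overlapped, and its change of 0.09 ± 0.08 did not pass (adjusted p 0.526). The membrane anchors Sdhc (-0.15 ± 0.10, adjusted p 0.377) and Sdhd (-0.21 ± 0.08, adjusted p 0.105, blocked 0.0262) did not pass.

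In complex III, falls covered the cytochrome c1 and Rieske subunits, a core protein and accessory subunits. Cyc1, cytochrome c1, which hands electrons to cytochrome c, read 6873 and 6062 on MT-/- DOX arrays against 8784 and 8634 on MT-/- saline arrays, and 6945 and 6427 on MT+/+ DOX arrays against 9270 and 8784 on MT+/+ saline arrays. Every DOX array was below every saline array, with little difference between genotypes. Cyc1 fell by 0.43 ± 0.06 (25.9%, adjusted p 0.00224).

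Uqcrfs1, the Rieske iron-sulfur protein, read 6833 and 6649 on MT-/- DOX arrays against 8798 and 8442 on MT-/- saline arrays, and 7483 and 7316 on MT+/+ DOX arrays against 8861 and 8654 on MT+/+ saline arrays. The groups did not overlap, and it fell by 0.30 ± 0.04 (18.7%, adjusted p 0.00355). Uqcr11, a small accessory subunit, read 5721 and 5436 on MT-/- DOX arrays against 7284 and 7316 on MT-/- saline arrays, and 6441 and 6660 on MT+/+ DOX arrays against 7797 and 7382 on MT+/+ saline arrays. It was lowest on the MT-/- DOX arrays and fell by 0.30 ± 0.05 (18.8%, adjusted p 0.00546). Uqcrq, another accessory subunit, averaged 6663 on DOX arrays and 7968 on saline arrays and fell by 0.26 ± 0.05 (adjusted p 0.01). Its dimmer probe sets gave -0.33 ± 0.12 and 0.29 ± 0.12, and neither passed (adjusted p 0.106 and 0.179). With all its tested probe sets averaged Uqcrq did not pass (0.504), nor did it without the trend (0.0629).

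Uqcrc1, a core protein of complex III, read 5874 and 4591 on MT-/- DOX arrays against 7303 and 6873 on MT-/- saline arrays, and 5642 and 4793 on MT+/+ DOX arrays against 7035 and 6676 on MT+/+ saline arrays. DOX array 2 was the lower in both genotypes, and no DOX array reached a saline array. Uqcrc1 fell by 0.42 ± 0.09 (25.4%, adjusted p 0.0154), a call lost without MT+/+ saline array 1 (0.0542), MT+/+ DOX array 2 (0.0563) or MT-/- saline array 1 (0.0636). Uqcrc2, the other core protein, changed by -0.20 ± 0.08 and did not pass (adjusted p 0.153, blocked 0.0267). Uqcrh, the hinge protein, had -0.11 ± 0.06 (adjusted p 0.25) and Uqcrb, a ubiquinone-binding subunit, -0.05 ± 0.04 (adjusted p 0.555). The probe sets of Uqcr10 disagreed: the brightest had -0.15 ± 0.06 (adjusted p 0.131), while a dim one averaged 290.7 on DOX arrays and 556.8 on saline arrays, a change of -0.90 ± 0.13 (adjusted p 0.00303).

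Cycs encodes somatic cytochrome c, the carrier between complexes III and IV. It read 9846 and 9342 on MT-/- DOX arrays against 11709 and 11374 on MT-/- saline arrays, and 10728 and 10921 on MT+/+ DOX arrays against 12775 and 13430 on MT+/+ saline arrays. Within each genotype the groups did not overlap, and the MT-/- arrays were the lower under both treatments. Cycs fell by 0.27 ± 0.04 (17.1%, adjusted p 0.00372), a call lost without the trend (0.0528). The size differed between its probe sets: 2 dimmer ones fell by 0.38 ± 0.06 and 0.63 ± 0.08 (adjusted p 0.00567 and 0.00148), and the dimmest had -0.19 ± 0.12 (adjusted p 0.344). Cycs, like Atp5k and 6 other member genes, has a pseudogene named after it in RefSeq, and signal shared with such copies cannot be told apart.

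**Figure D2:**
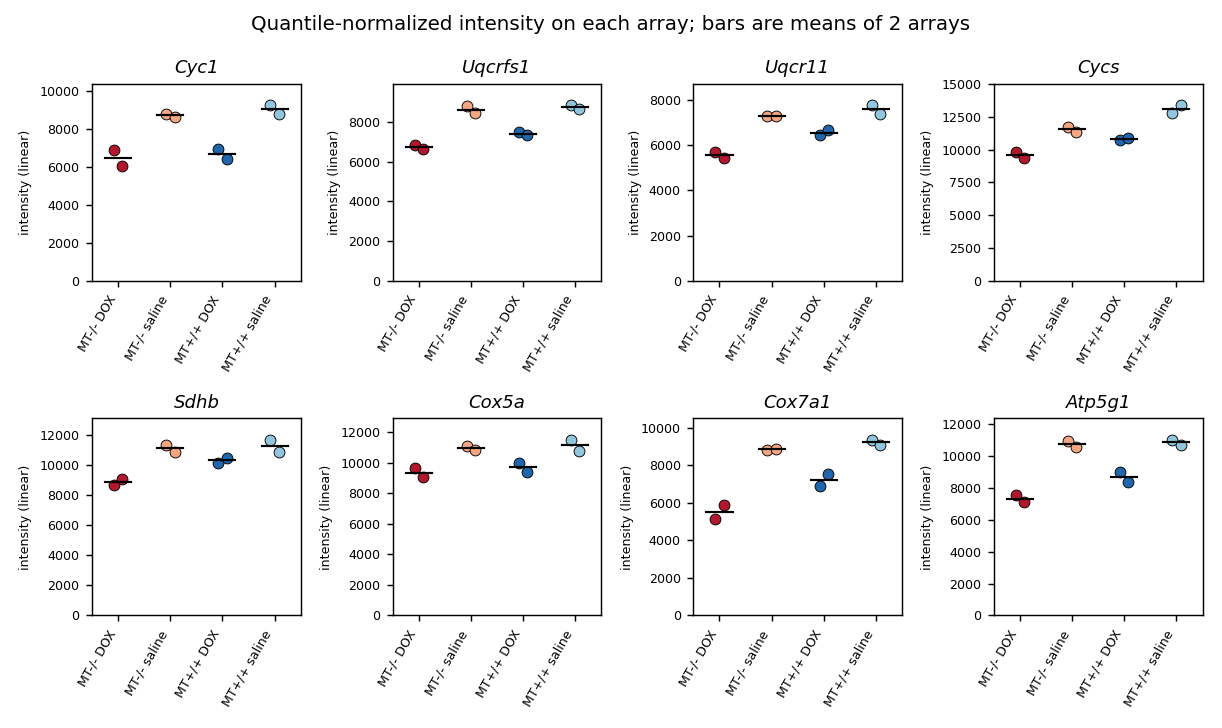
Quantile-normalized intensity (y axis, linear, from 0) on each of the 8 arrays for 8 genes that fell after DOX, by group (x axis); points are arrays and bars are means of 2 arrays. In every panel both DOX arrays of a genotype lie below both of its saline arrays, and Cox7a1 on MT-/- DOX arrays (5117 and 5888) lies lowest relative to its saline arrays.

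Complex IV divided between 2 genes that fell and many that did not pass. Cox7a1, the heart and skeletal muscle form of subunit VIIa, read 5117 and 5888 on MT-/- DOX arrays against 8833 and 8886 on MT-/- saline arrays, and 6912 and 7511 on MT+/+ DOX arrays against 9369 and 9070 on MT+/+ saline arrays. All DOX arrays lay below all saline arrays, and the MT-/- DOX arrays were lowest. It fell by 0.52 ± 0.06 (30.4%, adjusted p 0.00104), the greatest fall among the 46 genes by their brightest probe set. Cox5a, a nuclear subunit on the matrix side, read 9613 and 9045 on MT-/- DOX arrays against 11059 and 10818 on MT-/- saline arrays, and 9985 and 9369 on MT+/+ DOX arrays against 11505 and 10779 on MT+/+ saline arrays. The treatments did not overlap. Cox5a fell by 0.22 ± 0.05 (13.9%, adjusted p 0.016), a call lost without MT-/- saline array 1 (0.0684) or 2 (0.0514), MT+/+ DOX array 2 (0.0608) or MT+/+ saline array 1 (0.0586), and without the trend (0.117).

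The ubiquitous Cox7a2 read 9905 and 9941 on MT-/- DOX arrays against 10655 and 10175 on MT-/- saline arrays, and 10779 and 10818 on MT+/+ DOX arrays against 11192 and 11059 on MT+/+ saline arrays. Over all arrays DOX and saline overlapped, and its change of -0.06 ± 0.04 did not pass (adjusted p 0.402). Cox7a2l, a factor for joining complexes III and IV, had -0.02 ± 0.08 (adjusted p 0.914). Within each array the log2 ratio of Cox7a1 to Cox7a2 was lower with DOX by 0.47. Such ratios were compared for 7 isoform pairs in a test added after the values had been seen. For Cox7a1 and Cox7a2 a two-sided exact permutation test of 4 arrays against 4 gave p 0.0286, the smallest it can give, and 0.05 after adjustment over the 7 pairs, which is not under the threshold.

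Cox6a2, the heart and skeletal muscle form of subunit VIa, read 12580 and 12682 on MT-/- DOX arrays against 12358 and 12855 on MT-/- saline arrays, and 12580 and 13430 on MT+/+ DOX arrays against 12262 and 12855 on MT+/+ saline arrays. The groups overlapped (0.03 ± 0.04, adjusted p 0.744). Its ubiquitous partner Cox6a1 read 3447 and 1780 on MT-/- DOX arrays against 3583 and 3732 on MT-/- saline arrays, and 3578 and 2961 on MT+/+ DOX arrays against 3983 and 4055 on MT+/+ saline arrays. MT-/- DOX array 2 stood far below the rest, and its change of -0.43 ± 0.18 did not pass (adjusted p 0.157). Without MT-/- DOX array 1 it was -0.67 and passed (adjusted p 0.00246), and without MT-/- DOX array 2 it was -0.20 and did not pass. The ratio of Cox6a2 to Cox6a1 was higher with DOX by 0.46 (exact permutation p 0.0286, adjusted 0.05), and by 0.24 without MT-/- DOX array 2.

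Cox8b, a heart and skeletal muscle form of subunit VIII, had -0.07 ± 0.05 (adjusted p 0.395), and the ubiquitous Cox8a had -0.17 ± 0.08 (adjusted p 0.227). Their ratio was higher with DOX by 0.10 (exact permutation p 0.2, adjusted 0.233). Cox4i1, the common form of subunit IV, stayed between 12994 and 13605 on all 8 arrays (-0.01 ± 0.03, adjusted p 0.875). Cox4i2, its hypoxia-responsive form, was dim at 68 to 102 (-0.22 ± 0.10, adjusted p 0.192, blocked 0.0436), and the ratio of Cox4i2 to Cox4i1 changed by -0.21 (exact permutation p 0.0857, adjusted 0.12). Cox6b1 had -0.10 ± 0.04 (adjusted p 0.164), and the testis forms Cox6b2 and Cox8c had 0.00 ± 0.11 (0.988) and -0.06 ± 0.09 (0.759). The ratio of Cox6b2 to Cox6b1 changed by 0.10 (exact permutation p 0.543, adjusted 0.543). Cox5b (-0.07 ± 0.04, adjusted p 0.239) and Cox6c (0.02 ± 0.04, adjusted p 0.843) did not pass.

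**Figure D3:**
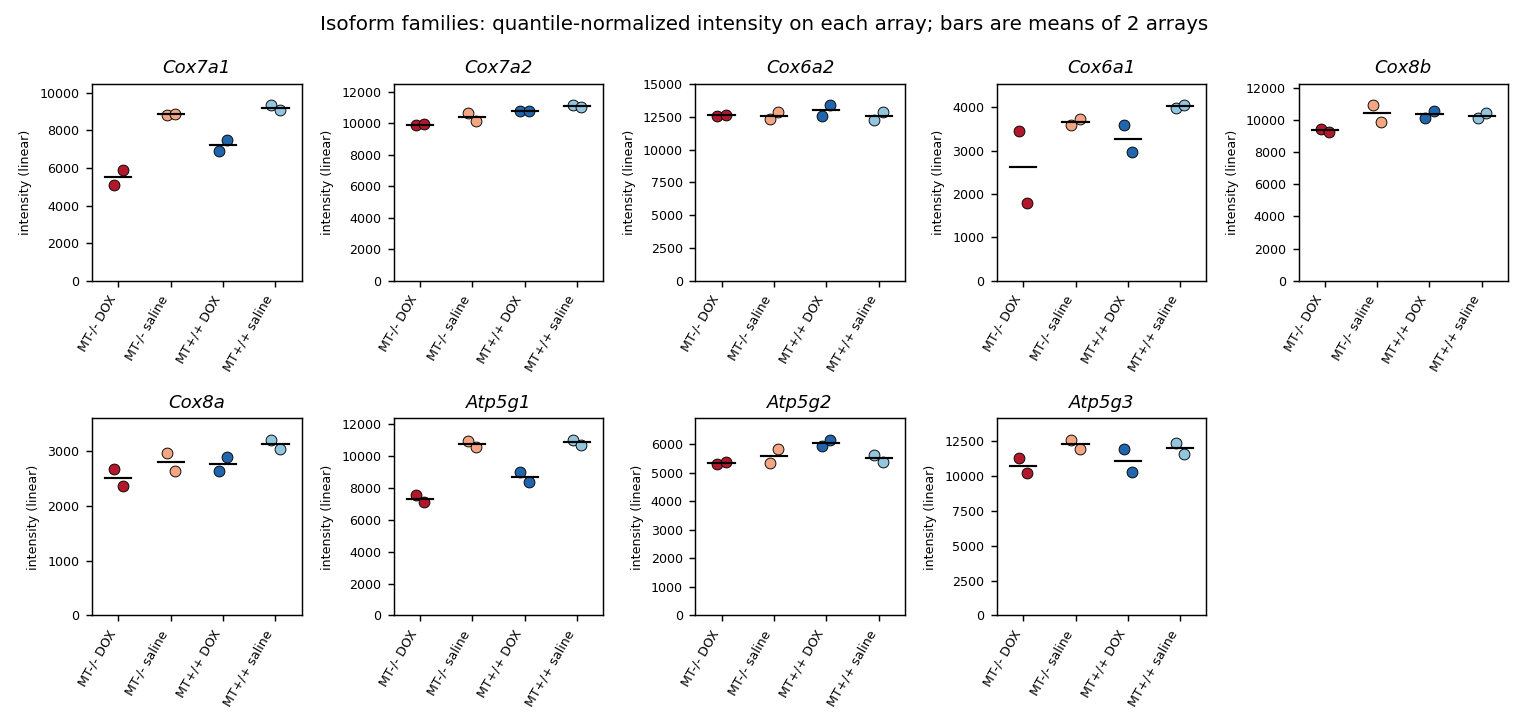
Quantile-normalized intensity (y axis, linear, from 0) on each array for members of the VIIa, VIa and VIII subunit families of complex IV and of the subunit c family of complex V, by group (x axis); points are arrays and bars are means of 2 arrays. Cox7a1 and Atp5g1 are lower on every DOX array, Cox6a1 is lowest on MT-/- DOX array 2 (1780), and Cox6a2 and Atp5g2 overlap between treatments.

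In complex V the falls were in a gene for the membrane ring, in small subunits of the central stalk and in accessory subunits of the membrane part. Atp5g1, Atp5g2 and Atp5g3 encode the same mature subunit c, which forms the rotating ring, with different import sequences. Atp5g1 read 7557 and 7081 on MT-/- DOX arrays against 10921 and 10535 on MT-/- saline arrays, and 8997 and 8351 on MT+/+ DOX arrays against 11022 and 10655 on MT+/+ saline arrays. The treatments did not overlap, and MT-/- DOX was lowest. Atp5g1 fell by 0.44 ± 0.05 (26.1%, adjusted p 0.000844), the smallest adjusted p of the members.

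Atp5g2 read 5297 and 5395 on MT-/- DOX arrays against 5336 and 5827 on MT-/- saline arrays, and 5931 and 6166 on MT+/+ DOX arrays against 5624 and 5387 on MT+/+ saline arrays. It overlapped (0.04 ± 0.05, adjusted p 0.737). Atp5g3 read 11243 and 10175 on MT-/- DOX arrays against 12580 and 11896 on MT-/- saline arrays, and 11896 and 10237 on MT+/+ DOX arrays against 12358 and 11575 on MT+/+ saline arrays. Its change of -0.15 ± 0.06 did not pass (adjusted p 0.132, blocked 0.0105). The log2 ratio of Atp5g1 to Atp5g2 was lower with DOX by 0.47, and that of Atp5g1 to Atp5g3 by 0.28 (exact permutation p 0.0286 each, adjusted 0.05 each).

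The catalytic head showed no call: the alpha subunit Atp5a1 had -0.03 ± 0.04 (adjusted p 0.698) and the beta subunit Atp5b 0.06 ± 0.05 (0.471). The gamma subunit Atp5c1 of the central stalk did not pass either (-0.02 ± 0.04, 0.872). Of the small stalk subunits, Atp5d (delta) fell by 0.31 ± 0.09 (adjusted p 0.0498) and Atp5e (epsilon) by 0.20 ± 0.05 (0.0245). In the membrane part, Atp5md fell by 0.22 ± 0.04 (0.0126) and Atp5k (subunit e) by 0.18 ± 0.04 (0.0318). With each of the 8 arrays left out in turn, Atp5d and Atp5k passed only where MT-/- DOX array 1 was the one left out (adjusted p up to 0.153 and 0.135 otherwise). Atp5e passed only where an MT-/- DOX array was left out (up to 0.0981 otherwise), and Atp5md lost it without MT-/- saline array 1 (0.069). All 4 lost their calls without the trend. Atp5d, Atp5e and Atp5k also lost them with median centring (0.0573, 0.0779 and 0.0782) and without a filter (0.0659, 0.0544 and 0.0738), and Atp5d with a pseudocount of 1 (0.0501).

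Other complex V genes did not pass with their brightest probe set: Atp5mpl had -0.24 ± 0.07 (adjusted p 0.0549, blocked 0.00631), Atp5j (coupling factor 6) -0.13 ± 0.04 (0.0749, blocked 0.0273), and Atp5pb (subunit b) -0.15 ± 0.06 (0.143, blocked 0.0127). Atp5j2 (subunit f) had -0.11 ± 0.05 (0.176, blocked 0.0383), Atp5o (the oligomycin sensitivity protein) -0.05 ± 0.04 (0.467), Atp5h (subunit d) -0.05 ± 0.04 (0.535) and Atp5l (subunit g) -0.01 ± 0.06 (0.975). Dimmer probe sets of Atp5pb (-0.24 ± 0.06, adjusted p 0.0238), Atp5j2 (-0.19 ± 0.05, 0.0287) and Uqcrb (-0.20 ± 0.05, 0.0409) did pass.

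The change varied with brightness. Of 17 genes with a mean intensity of 10000 or more, 3 fell and the median was -0.06. Of 12 genes between 5000 and 8000, 8 fell and the median was -0.28, and of 8 between 8000 and 10000, 3 fell (-0.14). Of 6 between 1000 and 5000, 0 fell, with a median of -0.19. Over the 43 genes at 1000 or more, log2 level and log2 change had r 0.31 and rho 0.41, as a description across genes of the same arrays. The highest normalized intensity on the arrays was 20157, and the part of signal near the top of the scale in these sizes was not tested.

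Within MT-/- hearts, 9 member genes fell after DOX and 0 rose, 19.6% of 46, beside 3.98% of all genes that fell and 2.76% that rose, and the member median was -0.16. Cox7a1 fell by 0.69 ± 0.08 (38%, adjusted p 0.00312) and Atp5g1 by 0.55 ± 0.07 (31.8%, adjusted p 0.00312), and both kept their calls in every alternative run. The other 7 were Uqcrfs1 (-0.35 ± 0.06, adjusted p 0.0143), Uqcr11 (-0.39 ± 0.07, 0.0148), Cyc1 (-0.43 ± 0.08, 0.0178), Sdhb (-0.33 ± 0.06, 0.0199), Atp5md (-0.30 ± 0.06, 0.0279), Cycs (-0.27 ± 0.06, 0.0304) and Uqcrq (-0.31 ± 0.07, 0.0339). Cyc1, Sdhb, Uqcr11 and Uqcrfs1 did not pass without MT-/- saline array 1 (0.128, 0.17, 0.113 and 0.132), MT-/- saline array 2 (0.105, 0.0896, 0.109 and 0.0804) or MT-/- DOX array 2 (0.0901, 0.056, 0.0741 and 0.0687). Atp5md, Cycs and Uqcrq kept their calls in 9, 9 and 6 of the 18 settings run. All 3 lost them with median centring (0.0511, 0.105 and 0.063), without a filter (0.0586, 0.069 and 0.0669) and without MT-/- saline array 1 (0.21, 0.2 and 0.209), MT-/- saline array 2 (0.118, 0.136 and 0.175) or MT-/- DOX array 2 (0.125, 0.165 and 0.158). Uqcrq also lost its call without any 1 MT+/+ array (up to 0.0562), Atp5md without either MT+/+ saline array (up to 0.0551) and Cycs without either MT+/+ DOX array (up to 0.053). By probe sets 13 of 83 fell, beside 3.38% of all. With the replicate block 34 fell, beside 16.9% of all probe sets called in either direction. The count was 2 without MT-/- saline array 1, 2 without MT-/- saline array 2 and 3 without MT-/- DOX array 2. Without the trend, or with only these 2 groups in the fit, 4 fell. Calls over all probe sets were not counted in these runs or with 1 array left out.

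Within MT+/+ hearts, 3 member genes fell and 0 rose, 6.52% of 46, beside 1.45% of all genes that fell and 1.24% that rose, and the member median was -0.12. They were Cyc1 (-0.43 ± 0.08, adjusted p 0.0332), Atp5g1 (-0.32 ± 0.07, 0.0464) and Cycs (-0.27 ± 0.06, 0.0464), which also fell in MT-/- hearts. All 3 lost their MT+/+ calls without the trend (0.108, 0.193 and 0.254). Atp5g1 and Cycs also lost them with median centring (0.0817 and 0.147) and without a filter (0.0863 and 0.0989). Without a filter Cyc1 stood at the threshold (0.05). With only the 2 groups compared, Atp5g1 and Cycs did not pass (0.059 each). Cycs lost its call with the deposited scaling as well (0.0597), and with its probe sets averaged (0.0609). Cox7a1 had -0.35 ± 0.08 and did not pass (adjusted p 0.0657, blocked 0.0126). By probe sets 5 of 83 fell, beside 1.26% of all. With 1 array left out, calls over all probe sets were not counted. With the replicate block 14 fell, beside 11.1% of all probe sets called in either direction. The count was 0 without any 1 MT+/+ array or without either MT-/- saline array. Without either MT-/- DOX array, 7 fell.

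Whether the DOX change differed by genotype was tested directly as the interaction, and no member and no probe set on the array passed (0% called). The smallest adjusted p of the members was 1, and 3 of 83 member probe sets (3.61%) had an unadjusted p under 0.05, beside 2.32% of all. The 3 were the brightest probe sets of Cox7a1 (-0.33 ± 0.12, p 0.02), Cox8c (0.49 ± 0.18, p 0.026) and Atp5g1 (-0.23 ± 0.09, p 0.038). The change was more negative in MT-/- than in MT+/+ hearts for 38 of 46 genes, beside 50.4% of all genes, with a median difference of -0.10. With the deposited scaling this held for 34 of 46, beside 56.4% of all genes, and with median centring for 40, beside 59.5%. The change after DOX was below 0 in both genotypes for 33 genes and above 0 in both for 3. The changes had r 0.63 across the 46 genes, a description over genes that share the arrays of each genotype.

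**Figure D4:**
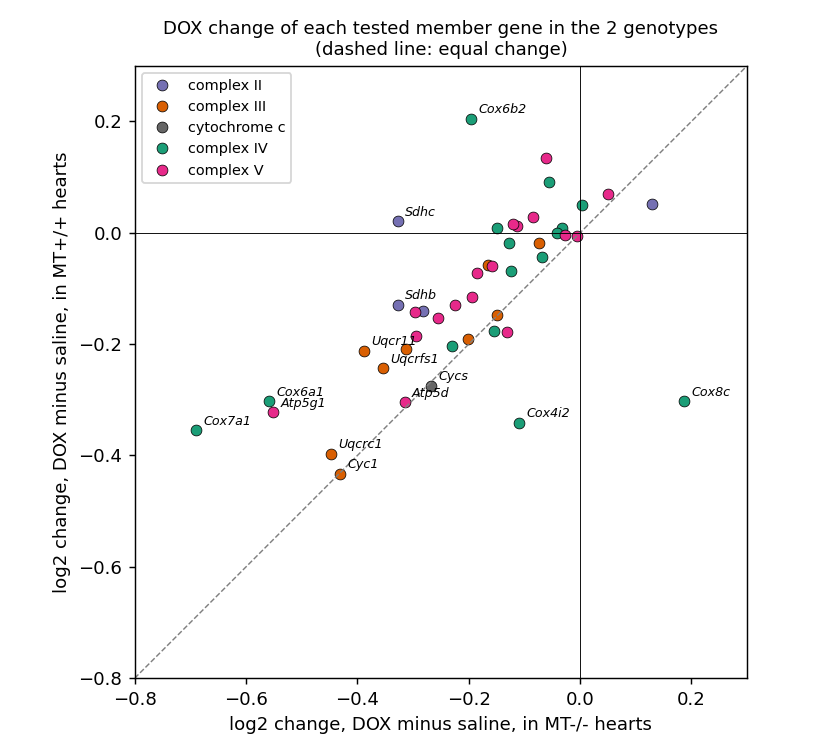
Log2 change after DOX in MT-/- hearts (x axis) against MT+/+ hearts (y axis) for the 46 tested member genes; each point is a gene, coloured by complex, and the dashed line marks equal change. Most points lie below 0 on both axes and 38 lie on the MT-/- side of the line, with Cox7a1 at -0.69 and -0.35.

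Between genotypes, no member passed. Averaged over treatments 0 of 83 probe sets were called by limma, beside 0.905% of all probe sets, and 28 (33.7%) had an unadjusted p under 0.05, beside 13% of all. The gene median was -0.08, and 41 of 46 lay below 0, against 51.4% of all genes. With median centring that median was -0.02, and 31 of 46 lay below 0, against 35.4% of all genes, whose median was then 0.06. Cycs had -0.18 ± 0.04 (adjusted p 0.105), Cox7a1 -0.22 ± 0.06 (0.156) and Uqcrh -0.18 ± 0.06 (0.24). With the replicate block 5 probe sets fell, beside 4.86% of all called: those of Cycs (0.028), Cox7a1 (0.0346) and Uqcrh (0.0426), and dimmer ones of Cox7a2 (0.0244) and Atp5o (0.0405).

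Under DOX alone, 0 of 83 were called, beside 0.283% of all, with 25 (30.1%) at an unadjusted p under 0.05, beside 7.39% of all, and a gene median of -0.13. Median centring moved that median to -0.05 and the median of all genes to 0.03. With the replicate block 2 fell, beside 1.55% of all called. Cox7a1 averaged 5503 on MT-/- DOX arrays and 7212 on MT+/+ DOX arrays (-0.39 ± 0.08, adjusted p 0.157, blocked 0.0278), and Atp5g1 averaged 7319 on MT-/- DOX arrays and 8674 on MT+/+ DOX arrays (-0.24 ± 0.07, 0.307, blocked 0.0452). Under saline, 0 of 83 were called, beside 0.186% of all, with 6 (7.23%) at an unadjusted p under 0.05, beside 8.62% of all. The gene median there was -0.05, and 0.01 with median centring, when that of all genes was 0.09. The smallest p under saline was that of Sdhc, which averaged 3532 on MT-/- saline arrays and 2606 on MT+/+ saline arrays (0.45 ± 0.14, adjusted p 0.437).

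Genes that serve the same pathway were looked at from lists of known function. Of 32 tested assembly factors of complexes II to V, 10 fell and 0 rose after DOX averaged over genotypes (median -0.27), beside the 7.81% of all genes that fell. Bcs1l, which inserts the Rieske protein into complex III, fell by 0.70 ± 0.10 (adjusted p 0.00352), Uqcc2, another complex III assembly factor, by 0.47 ± 0.07 (0.00427), and Tmem70, which serves complex V, by 0.52 ± 0.09 (0.00652). Of 12 tested genes of ubiquinone synthesis 4 fell (median -0.22), which were Coq9 (-0.32 ± 0.06, 0.00984), Pdss2 (-0.49 ± 0.10, 0.0127), Coq5 (-0.45 ± 0.12, 0.0452) and Coq3 (-0.45 ± 0.13, 0.0489).

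Of 8 tested genes of adenine nucleotide transport and energy transfer 3 fell and 0 rose (median -0.13): Ckm, muscle creatine kinase, by 0.41 (adjusted p 0.00108), Ckmt2, its mitochondrial counterpart, by 0.32 (0.0155), and the outer membrane channel Vdac3 by 0.22 (0.038). Of 16 nuclear regulators of respiratory genes 1 fell, Gabpb1, a subunit of GABP, by 0.38 ± 0.08 (adjusted p 0.0147), and 0 rose (median -0.07). Over all tested genes 7.81% fell and 6.98% rose. Tfam, which maintains mitochondrial DNA, had -0.29 ± 0.11 (0.114), and the coactivator Ppargc1a 0.37 ± 0.23 (0.368). None of these 4 lists had a call for genotype averaged over treatments.

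Markers of the cells that hold these transcripts moved as well. Averaged over genotypes, 7.81% of all tested genes fell after DOX and 6.98% rose. Of 10 cardiomyocyte markers 4 fell after DOX (Myh6, Ryr2, Tnni3 and Actc1), with a median of -0.05. Their summed intensity was 127414 to 134012 on MT-/- DOX arrays against 139929 to 140683 on MT-/- saline arrays, and 134942 to 136927 on MT+/+ DOX arrays against 140983 to 141562 on MT+/+ saline arrays. Of 8 fibroblast markers 6 fell (median -1.45), summed at 10621 to 11593 on MT-/- DOX arrays against 18034 to 20021 on MT-/- saline arrays, and 10051 to 11393 on MT+/+ DOX arrays against 16690 to 17362 on MT+/+ saline arrays. Of 8 macrophage markers 7 fell (median -0.71), and of 8 endothelial markers 2 fell (-0.17). Of 5 tested neutrophil markers 3 rose averaged over genotypes (median 0.67). In MT-/- hearts alone 3 rose (median 1.09), while in MT+/+ hearts 0 rose (median -0.07), with 0 calls for the interaction. Averaged over genotypes, 1 of 4 red cell and 2 of 5 smooth muscle and pericyte markers fell.

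Brown fat, which also expresses Cox7a1 and Cox8b, had its 6 markers summed at 2344 to 2715 on MT-/- DOX arrays against 2329 to 3785 on MT-/- saline arrays, and 6661 to 7680 on MT+/+ DOX arrays against 4719 to 4879 on MT+/+ saline arrays. Pdk4, which heart muscle also expresses, was called lower in MT-/- than in MT+/+ hearts averaged over treatments (-1.34 ± 0.18, adjusted p 0.0134) and under DOX (-1.87 ± 0.25, 0.0258). Averaged over treatments, Ucp1 (-0.07 ± 0.11), Cidea (-0.28 ± 0.11), Elovl3 (-0.07 ± 0.09) and Prdm16 (-0.01 ± 0.07) did not pass, and Zic1 was below the array median on all 8 arrays. After DOX averaged over genotypes Cidea rose (0.68 ± 0.11, adjusted p 0.00632), and the other 4 tested markers did not pass. Of 7 skeletal muscle markers, Myh1, Myh2, Myh4, Actn3 and Tnnt3 were below the array median on all 8 arrays. The part of these cell types in the member changes was not tested.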

How the data were processed

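Heart RNA was hybridized to 8 one-colour Affymetrix arrays from 2 µg of total RNA, per the labels' protocols. The deposited values are 1 linear signal intensity per probe set and array, made by the authors with GCOS 1.4 per the submitters' processing notes; no source used here gives the algorithm or scaling target. Trimmed means differed by 8.06% between arrays, and arrays were quantile-normalized. Probe sets at or above the array median on at least 2 of 8 arrays were kept (24751 of 45037, 64 controls left out). Tests used limma 3.58.1 in R 4.3.3 on log2(intensity + 16), with 4 group means, eBayes with a trend, a residual df of 4 and a prior df of 4.66. The fit was also run on simulated data with independent noise on each array. The changes planted there were larger than the member changes averaged over genotypes. That run therefore does not check calls of the size seen here, nor deviations shared by replicate numbers. All p-values are two-sided. The smallest exact p for 2 arrays against 2 is 0.333, so no such test was run.

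Gene symbols came from the platform annotation, which gave 1 symbol for 34958 probe sets and several for 932. A gene was represented by its tested probe set with the highest mean. The text names the members by complex, the isoform families, the genes past the threshold and, for other lists, those with the smallest p; Ndufv1, Tfam and Ppargc1a were named after their values were seen. Members and lists were chosen with earlier results of these data known.

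The main fit took no account of replicate numbers. Only the replicate block, an alternative run, treated them as pairing arrays. It was run because the deviations of same-numbered arrays correlated at 0.36 to 0.54 in all 6 group pairs. What a number shares is not stated in the labels. Alternatives were the deposited scaling, median centring, pseudocounts of 1 and 64, no filter or a stricter one, no trend, the replicate block, only the compared groups, the mean of the probe sets of a gene, and each array left out in turn. Leaving out arrays for the isoform ratios, and counting members below 0 under each scaling, were chosen after seeing the data.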

Additional observations from a re-analysis of the deposited data

How the results depend on the processing

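The 224 single-gene results were recomputed under 18 settings: 3756 values kept their side of the threshold, 124 lost a call, 28 gained one and 0 reversed a called direction. Most of the 224 results were not called in the main run, so keeping a side mostly meant staying uncalled. The calls that could be lost were those of 14 genes averaged over genotypes, 9 in MT-/- and 3 in MT+/+ hearts. A group left with 1 array was assumed to vary like the others. Outside the main run, calls over all probe sets were counted only with the replicate block and, averaged over genotypes, without the trend. Elsewhere a loss of member calls cannot be told from a loss of all calls. Member probe sets lower after DOX averaged over genotypes numbered 24, and 10 to 26 with 1 array left out; genes numbered 14, and 7 to 16. In MT-/- hearts they were 13, and 2 to 19, and in MT+/+ hearts 5, and 0 to 7. With the replicate block the counts were 41 probe sets and 22 genes averaged, 34 in MT-/-, 14 in MT+/+, 5 for genotype averaged and 2 for genotype under DOX (beside 27.1%, 16.9%, 11.1%, 4.86% and 1.55% of all probe sets), and 0 for genotype under saline and for the interaction. Without the trend they were 9 and 6 averaged, 4 in MT-/- and 1 in MT+/+. Averaged over genotypes, 3394 of all 24751 probe sets were called without the trend, beside 3433 with it. The share of member probe sets called without the trend was below that of all probe sets called in either direction. In MT+/+ hearts 2 were called with median centring, without a filter and with probe sets of a gene averaged, and 3 with only the compared groups, which gave 4 in MT-/- hearts. Causes were not tested. With 2 arrays per group, precision is limited by their number, and any loss of response near the top of the intensity scale was not tested.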
